A study of Homo sapiens with 6 samples.

Results

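The 10 genes described here are commonly used to follow the epithelial-mesenchymal transition (EMT) and were measured in definitive endoderm (DE) cells made with and without saracatinib (SAR). They were found by symbol among the 40396 Ensembl genes of the deposited table, and all 10 were present: the epithelial markers CDH1 and EPCAM, the mesenchymal markers CDH2, VIM and FN1, and the transcription factors SNAI1, SNAI2, TWIST1, ZEB1 and ZEB2. The cells were H1, a human embryonic stem cell line, differentiated on Matrigel for 3 days in DMEM with B27 and 50 ng/ml activin A, and the Wnt activator CHIR99021 was added at 2.5 µM in the first 24 h. SAR, known as an inhibitor of kinases of the Src family, was present at 0.5 µM for all 3 days in one group, and the other group received DMSO as the control. At this dose the paper reports no effective inhibition of Src phosphorylation, but lower phosphorylation of focal adhesion kinase. Each group had 3 samples, from which mRNA was sequenced, and a single cell line was used. The labels do not say whether the 3 samples of a group came from separate cultures, so the p-values measure the spread between these samples, which may be technical.

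In an epithelium, E-cadherin holds neighbouring cells together and is anchored to actin through catenins. During EMT, SNAI, TWIST and ZEB factors repress CDH1 and other junction genes, and the cells gain N-cadherin, vimentin and fibronectin. Gastrulating cells pass through such a transition in the primitive streak, and endoderm cells later form an epithelium again. ZEB1 and ZEB2 and the microRNAs of the miR-200 family repress each other, which keeps cells on one side of this balance or the other.

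The library totals behind the FPKM values (fragments divided by gene length and library total) were between 16681280 and 24419937 reads, as recovered from the steps of these values. The recovered counts of all genes summed to nearly as much, 16639746 to 24353080. The totals thus appear to hold reads counted in genes, not all reads sequenced. More genes were above 0 FPKM in control replicate 1, at 33169, than in the other 5 libraries, at 29506 to 30109. Differences were tested with limma on log2(FPKM + 0.1) for 16371 genes whose mean reached 0.5 FPKM, and a gene was said to rise or fall at a Benjamini-Hochberg adjusted p under 0.05. By this rule 33.3% of all tested genes differed, 23.7% higher with SAR and 9.55% lower. The median tested gene stood at a log2 fold change of 0.12, against which the values below stand. Median-ratio rescaling, in which a library is divided by its median ratio to the geometric mean of all 6, brought that median to 0.00 and left 13.8% of genes higher and 15.5% lower (2259 and 2538 genes in place of 3885 and 1563). Without control replicate 2, control replicate 3 or SAR replicate 2, the genes higher with SAR numbered 2419, 2129 and 2366, and the lower ones 1005, 833 and 1031.

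The samples are labelled as DE cells in their titles and as ESCs in another label. All 13 DE markers of the list used here were expressed above the minimum. They summed to 3977 to 5084 FPKM in control and 2105 to 2158 FPKM with SAR, most of it CER1. Of these, 6 rose with SAR, among them FOXA2 and SOX17 (67.5 ± 18.3 FPKM with SAR and 31.6 ± 1.84 in control, SD, n = 3), and 6 fell, among them CXCR4, EOMES and CER1. The 12 pluripotency markers summed to between 1010 and 1130 FPKM in the control libraries and between 1197 and 1227 with SAR. Transcripts of this list were thus abundant in both groups, and 3 of its genes rose (SOX2, TDGF1 and LIN28A) while NANOG fell. Whether they came from remaining stem cells was not tested. The 16 mesoderm markers summed to 65.3 to 69.3 FPKM in control and 40.9 to 54.0 with SAR, with MESP1, HAND2 and FOXF1 near 0 in both. TBXT and TBX6 rose and MIXL1 and KDR fell. The 15 neural crest and ectoderm markers summed to 163 to 177 FPKM in control and 149 to 172 with SAR, most of it OTX2, and PAX6, TFAP2A and KRT5 were near 0. Of the 6 that were tested, SOX10 and FOXD3 rose and ETS1 fell. The part of these marker levels in the results below was not tested. In bulk RNA, fewer cells of a type and less RNA per cell cannot be told apart.

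With SAR, both epithelial markers rose, the mesenchymal markers CDH2 and VIM fell, and FN1 and the 3 tested transcription factors did not pass the test. All 4 changes were smaller than a log2 fold change of 1, the threshold of the study, which 3.41% of all tested genes passed upwards and 1.58% downwards. Of the 8 members that were tested, 4 (2 higher and 2 lower) thus differed, against the 33.3% of all tested genes, and the groups of the same 4 genes did not overlap, as was so for 50.7% of all tested genes. The same 4 differed with voom on recovered reads, where 38.7% of genes did, and after rescaling 2 members were higher and 3 lower, SNAI1 being the third. ZEB1 and ZEB2 lay under the minimum of 0.5 FPKM and were not tested.

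**Figure D1:**
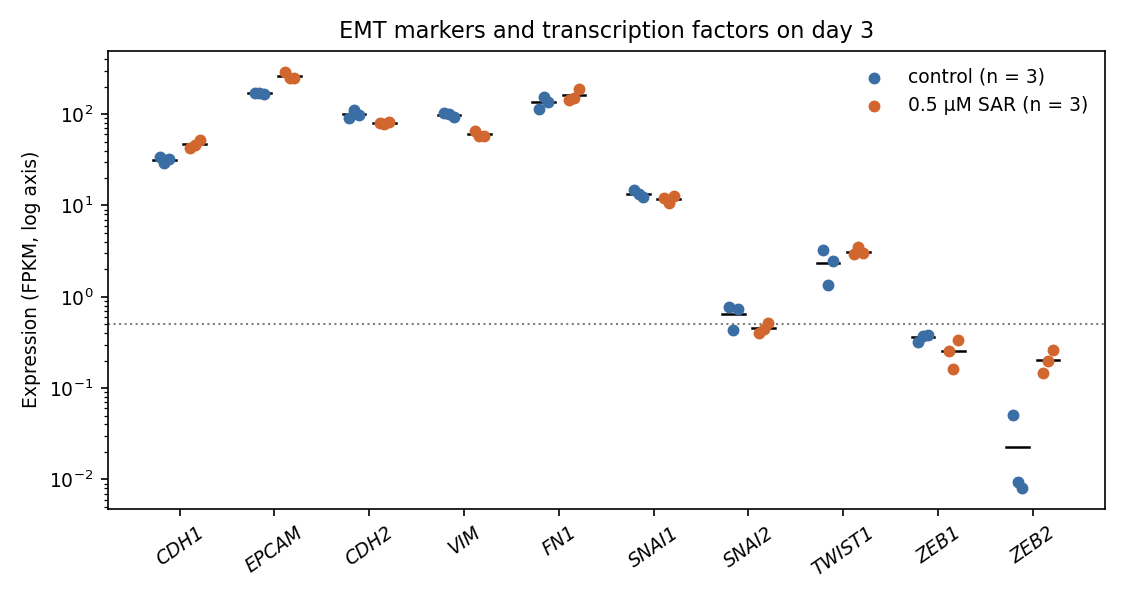
Expression of the 10 EMT genes in FPKM on a log axis, with 1 point per library, control in blue and 0.5 µM SAR in orange, and a black line at the mean of each group of 3. The dotted line is the minimum of 0.5 FPKM for the test. The groups stand apart for CDH1, EPCAM, CDH2, VIM and ZEB2 and overlap for the other 5 genes.

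CDH1 (ENSG00000039068, chromosome 16 from 68737225 to 68835548 on the plus strand in the GENCODE 29 annotation of GRCh38) encodes E-cadherin, the adhesion molecule of epithelial adherens junctions. Its level was 33.6, 28.9 and 32.6 FPKM in the control libraries, in the order of their replicate numbers, and 42.9, 46.4 and 52.3 FPKM with SAR. Every SAR library lay above every control library. The means were 31.7 ± 2.49 and 47.2 ± 4.71 FPKM (SD, n = 3), which is a log2 fold change of 0.57 (95% interval 0.36 to 0.79, standard error 0.0912, limma adjusted p = 0.00515). The rise was 0.45 after median-ratio rescaling (adjusted p = 0.0102).

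EPCAM (ENSG00000119888, chromosome 2 from 47345158 to 47387601) encodes a membrane protein of epithelial and pluripotent cells. Its 3 control libraries were close together, at 169.1, 170.8 and 168.2 FPKM and a mean of 169 ± 1.30 (SD, n = 3). The SAR libraries were at 292.9, 249.0 and 252.0 FPKM, a mean of 265 ± 24.5, with replicate 1 the highest. EPCAM had the highest level as deposited in both groups (in control this depends on the length taken for CDH2, given below) and rose by 0.64 in log2 units (95% interval 0.47 to 0.81, standard error 0.0731, limma adjusted p = 0.00177), or 0.52 after rescaling. For both epithelial markers the lower end of the interval, 0.36 for CDH1 and 0.47 for EPCAM, lay above the median of all tested genes.

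VIM (ENSG00000026025, chromosome 10 from 17228259 to 17237593) encodes vimentin, the intermediate filament of mesenchymal cells. It had 102.6, 99.6 and 93.5 FPKM in control and 65.3, 57.9 and 57.4 FPKM with SAR. The lowest control library was above the highest SAR library. From 98.6 ± 4.66 to 60.2 ± 4.38 FPKM (SD, n = 3), VIM fell by 0.71 in log2 units (95% interval -0.88 to -0.55, standard error 0.0691, limma adjusted p = 0.00114), and by 0.83 after rescaling. Among the 4 members that passed the test, it had the largest change. GENCODE 29 places 12.4% of its exon bases opposite VIM-AS1, which had at most 1.09 FPKM in any library.

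CDH2 (ENSG00000170558, chromosome 18 from 27950966 to 28177446 on the minus strand) encodes N-cadherin, the adhesion molecule that replaces E-cadherin during EMT. Its control libraries were at 91.0, 111.5 and 97.8 FPKM and its SAR libraries at 79.2, 77.1 and 82.3 FPKM. The groups did not overlap, but control replicate 1 was only a little above SAR replicate 3. CDH2 fell from 100.1 ± 10.5 to 79.5 ± 2.57 FPKM (SD, n = 3), by 0.33 in log2 units (standard error 0.0808, 95% interval -0.52 to -0.14, limma adjusted p = 0.0225), and by 0.45 after rescaling. This was the least stable of the 4 calls, with an adjusted p (limma) of 0.0581 without SAR replicate 1, 0.0755 without SAR replicate 2, 0.0645 without control replicate 3 and 0.0563 with no filter on low values.

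VIM and CDH2, which fell together, have RefSeq windows from 250 bases before to 50 after the transcript start (GRCh38.p14), chr10:17227991-17228290 on the plus strand for VIM and chr18:28177081-28177380 on the minus strand for CDH2. CDH2 has 2 such entries, and the one nearest to the start in GENCODE 29 is shown. Its window does not contain that start, at 28177446. They were searched on both strands for the E-box bound by SNAI and ZEB factors (CAGGTG or CACCTG, in 20.6% of 34796 promoter windows of the same length), a TEAD motif (GGAATG or CATTCC, in 14.0%) and a GC box (GGGCGG or CCGCCC, in 44.9%). The capitals mark what was found, 1 GC box in each window and neither of the other motifs. The motifs were chosen after the values of these genes were known, and a match is a description of the letters only. The sequence table held windows for 5 of the 10 genes and none for CDH1, EPCAM, SNAI1, SNAI2 and TWIST1. Of the other windows, that of FN1 had 6 GC boxes only. That of ZEB1 nearest its start had 1 match to each motif and that of ZEB2 none. Neither ZEB window contains the GENCODE 29 start, at 31318495 for ZEB1 and 144524583 for ZEB2. The ZEB2 window lies from 144520070 to 144520369, so bases at that start were not searched.
VIM: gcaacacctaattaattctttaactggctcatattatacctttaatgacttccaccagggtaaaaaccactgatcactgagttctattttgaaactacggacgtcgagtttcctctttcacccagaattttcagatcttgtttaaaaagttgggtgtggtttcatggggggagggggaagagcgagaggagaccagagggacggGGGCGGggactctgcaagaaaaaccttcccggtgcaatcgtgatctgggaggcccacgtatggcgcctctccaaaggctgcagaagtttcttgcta
CDH2: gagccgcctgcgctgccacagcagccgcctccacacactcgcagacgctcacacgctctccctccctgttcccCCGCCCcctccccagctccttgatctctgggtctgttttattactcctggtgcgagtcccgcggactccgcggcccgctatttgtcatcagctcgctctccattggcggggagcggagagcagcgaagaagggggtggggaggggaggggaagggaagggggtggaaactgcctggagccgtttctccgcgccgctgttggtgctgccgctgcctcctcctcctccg

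FN1 (ENSG00000115414, chromosome 2 from 215360440 to 215436172) encodes fibronectin, a matrix protein made by mesenchymal cells and early endoderm. Its libraries were at 112.9, 155.1 and 136.9 FPKM in control and at 144.4, 152.2 and 190.4 FPKM with SAR. Control replicate 2 lay above SAR replicates 1 and 2, so that the groups overlapped. The log2 fold change of FN1 was 0.27 with a 95% interval from -0.07 to 0.61 (limma adjusted p = 0.189). It was 0.14 after rescaling or without control replicate 1 and 0.15 without SAR replicate 3. The interval of FN1 did not reach those of CDH2 and VIM, the other mesenchymal markers, but the difference between the genes was not tested.

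**Figure D2:**
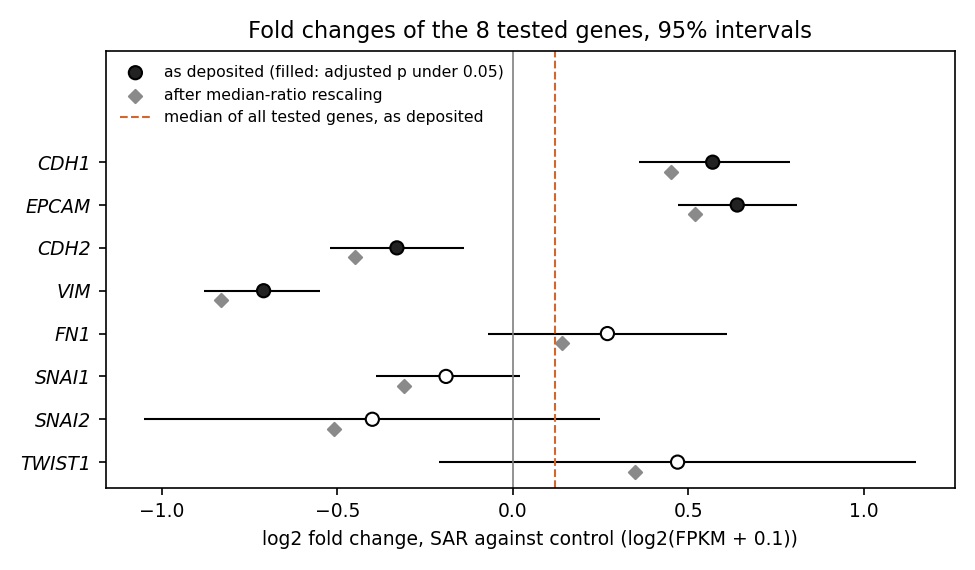
Log2 fold change of the 8 tested EMT genes with SAR against control, with 95% intervals as lines. Circles are values as deposited, filled where the adjusted p was under 0.05, diamonds are values after median-ratio rescaling, and the dashed line is the median of all tested genes at 0.12. CDH1 and EPCAM lie to the right, CDH2 and VIM to the left, and the intervals of the other 4 genes include 0.

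Ratios of 2 genes within a library do not depend on the scaling between libraries. The ratio of CDH2 to CDH1 in FPKM was 2.71, 3.86 and 3.00 in control and 1.84, 1.66 and 1.57 with SAR. N-cadherin transcripts thus remained above those of E-cadherin in all 6 libraries, by a smaller factor with SAR. The log2 ratio was 1.66 ± 0.264 in control and 0.76 ± 0.116 with SAR (SD, n = 3), a difference of -0.90 (two-sided exact permutation test, p = 0.1, the smallest that 3 against 3 allows). The level of CDH2 here rests on a length of 8583 bases, recovered from the FPKM steps, while GENCODE 29 gives 4950 bases of exons. The ratio itself thus depends on the length, which cancels in its change between groups. Another annotation may also count other reads, and the change with such reads was not tested. The ratio of VIM to EPCAM was 0.607, 0.583 and 0.556 in control and 0.223, 0.233 and 0.228 with SAR. Its log2 value differed by -1.35 between the groups (exact permutation test, p = 0.1), larger than the SD of 0.0634 in control and 0.0312 with SAR.

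**Figure D3:**
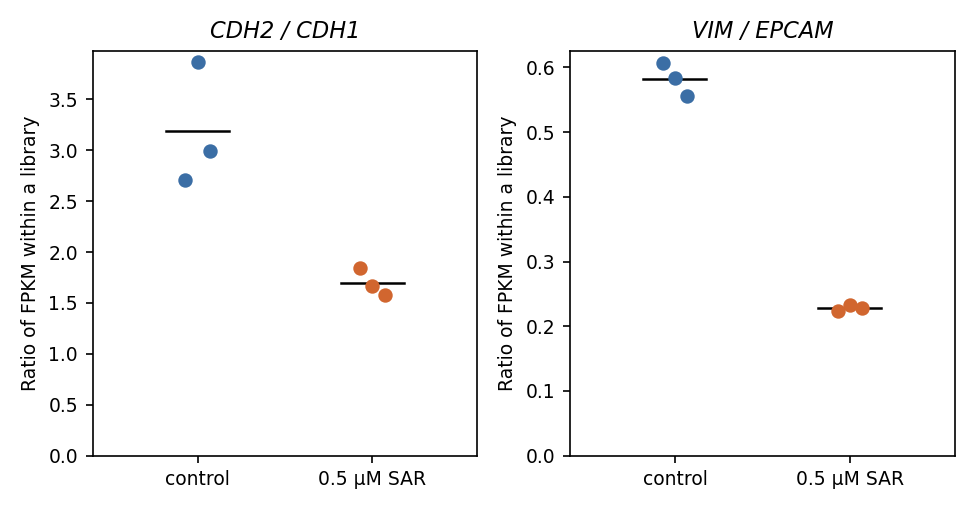
Ratio of FPKM within each library for CDH2 over CDH1 (left) and VIM over EPCAM (right), with 1 point per library, the mean of 3 as a line and axes that start at 0. All 3 SAR libraries lie under all 3 control libraries in both panels, with CDH2 over CDH1 between 1.57 and 1.84 against 2.71 to 3.86.

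Among the transcription factors, SNAI1 had the highest level, and its groups differed little. SNAI1 (ENSG00000124216, chromosome 20 from 49982999 to 49988886) encodes Snail, a zinc finger repressor of CDH1 that is active in the primitive streak. It was at 14.6, 13.4 and 12.4 FPKM in control and at 12.2, 10.8 and 12.6 FPKM with SAR. SAR replicate 3 lay above control replicate 3, and the other 2 SAR libraries below all controls. Its log2 fold change was -0.19 (95% interval -0.39 to 0.02, limma adjusted p = 0.137). After median-ratio rescaling SNAI1 was at -0.31 and passed the test (adjusted p = 0.0342), and it passed under no other alternative tried.

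TWIST1 (ENSG00000122691, chromosome 7 from 19020991 to 19117672) encodes a basic helix-loop-helix factor of mesoderm and neural crest. It was at 3.29, 1.35 and 2.44 FPKM in control and at 2.91, 3.49 and 3.00 FPKM with SAR. Control replicate 2 was far below the other libraries, and the control libraries rest on 144, 66 and 92 reads. The log2 fold change of TWIST1 was 0.47 (95% interval -0.21 to 1.15, limma adjusted p = 0.238), with 0.75 without control replicate 1 and 0.13 without control replicate 2.

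SNAI2 (ENSG00000019549, chromosome 8 from 48917604 to 48921740) encodes Slug, the relative of Snail in neural crest and mesoderm. Its libraries were at 0.765, 0.437 and 0.743 FPKM in control and at 0.402, 0.450 and 0.514 FPKM with SAR, on 22 to 55 reads each. Control replicate 2 lay among the SAR libraries, and it was the lowest control for TWIST1 too. The log2 fold change was -0.40 (95% interval -1.05 to 0.25, limma adjusted p = 0.289). A fall by 1 or a small rise was thus within its error. The gene reached the minimum of 0.5 FPKM only through its control level, with means of 0.648 FPKM in control and 0.455 FPKM with SAR. SNAI2 stood at -0.63 without control replicate 2, -0.64 after quantile normalization and -0.17 with an added 1 in place of 0.1.

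ZEB1 and ZEB2 encode zinc finger factors that repress CDH1 and junction genes. ZEB1 (ENSG00000148516, chromosome 10 from 31318495 to 31529814) was at 0.322, 0.374 and 0.386 FPKM in control and at 0.256, 0.164 and 0.339 FPKM with SAR, on 24 to 79 reads. SAR replicate 3 lay above control replicate 1, so the groups overlapped. ZEB2 (ENSG00000169554, chromosome 2 from 144364364 to 144524583) was at 0.0507, 0.00941 and 0.00811 FPKM in control and at 0.147, 0.197 and 0.260 FPKM with SAR. These values rest on 29, 6 and 4 reads in control and on 64, 87 and 125 reads with SAR. Every SAR library was above every control library, and the ratio of the ZEB2 means was 8.85, or 23.0 without control replicate 1, which held most of the control reads. With no filter on low values, ZEB2 was higher with SAR by 1.30 on the log2(FPKM + 0.1) scale (limma adjusted p = 0.0422), and ZEB1 stood at -0.41 (adjusted p = 0.519). The size of the ZEB2 difference depends on the added constant, with 0.23 for an added 1 and 2.89 for an added 0.01 in place of 0.1. That of ZEB1 was -0.12 with an added 1 and -0.22 without SAR replicate 2. The gene opposite ZEB1, ZEB1-AS1, covers 4.23% of its exon bases and was at 2.84 to 3.56 FPKM, above ZEB1 itself, and without the strand setting reads of the shared bases cannot be told apart.

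The miR-200 family acts on ZEB1 and ZEB2 through sites in their 3' untranslated regions. Its 5 mature sequences (RefSeq, GRCh38.p14) fall into 2 groups by the seed, bases 2 to 8, which is in capitals.
hsa-miR-200b-3p: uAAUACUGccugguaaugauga
hsa-miR-200c-3p: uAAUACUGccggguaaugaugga
hsa-miR-429: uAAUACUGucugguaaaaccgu
hsa-miR-200a-3p: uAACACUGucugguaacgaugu
hsa-miR-141-3p: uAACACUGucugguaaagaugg
The first 3 share a seed that pairs with CAGTATT and the other 2 one that pairs with CAGTGTT. In the GENCODE 29 principal transcript with the longest 3' untranslated region, ZEB1 holds 8 such matches in 1938 bases and ZEB2 holds 9 in 5370 bases. One match of each kind is shown per gene, with the seed match in capitals, at chr10:31527622-31527650 and chr10:31528035-31528063 on the plus strand for ZEB1 and at chr2:144389042-144389070 and chr2:144389226-144389254 on the minus strand for ZEB2.
ZEB1, first seed: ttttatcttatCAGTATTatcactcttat
ZEB1, second seed: atcatcagaatCAGTGTTtgtgattgtgt
ZEB2, first seed: ctaccatacatCAGTATTtttattattat
ZEB2, second seed: aaaattttgtaCAGTGTTaaggcctaaaa
The libraries were made from mRNA and do not measure mature microRNAs. The rows of the family's loci, chosen after the values of the members were seen, held few reads. MIR200CHG, the host transcript on chromosome 12, had 7, 7 and 2 reads in control and 12, 11 and 5 reads with SAR, and the groups overlapped in FPKM. On chromosome 1, MIR429 had 2, 1 and 0 against 6, 1 and 5 reads and MIR200B 0 in each control against 2, 2 and 0 reads, again with overlap. MIR200A was the only one whose groups did not overlap, with 0 reads in each control and 1, 3 and 3 reads with SAR, and MIR141 had 1 read in control replicate 2 and 0 elsewhere.

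In control the order of the levels as deposited was EPCAM, FN1, CDH2, VIM, CDH1, SNAI1, TWIST1, SNAI2, ZEB1 and ZEB2, in FPKM and so per length. Of these neighbours CDH2 and VIM did not differ beyond their spread, at 100.1 and 98.6 FPKM, and the ranges of all other neighbours were apart. The place of CDH2 depends on its length: with the same reads over the 4950 bases of GENCODE 29, its mean would be 174 FPKM in control, above VIM, FN1 and EPCAM. With SAR it would be 138 FPKM, between FN1 and VIM. Reads outside those bases would then not be counted, so both values may be too high. The other 9 genes keep their order at their GENCODE 29 lengths. With SAR the ranges of CDH2 and VIM were apart, at 79.5 and 60.2 FPKM, and those of ZEB1 and ZEB2 overlapped, at 0.253 and 0.201 FPKM. The mesenchymal VIM and the epithelial CDH1 lay closer together with SAR, at 60.2 and 47.2 FPKM, than in control, at 98.6 and 31.7 FPKM.

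Other epithelial genes mostly rose or did not pass the test. Of 40 listed genes of junctions, keratins and epithelial proteases, 37 were tested, of which 21 rose and 0 fell (limma, adjusted p under 0.05), against 23.7% higher and 9.55% lower among all tested genes. At an unadjusted p under 0.05, 1 of them was lower, and with voom on the recovered reads 0 were. Its median was 0.34 in log2 units where that of all tested genes was 0.12, and after rescaling it was 0.21 where theirs was 0.00, with 17 higher genes and a lower one, MAL2. Without SAR replicate 1, too, 1 was lower. The summed level of the list was 1454 to 1521 FPKM in control and 1710 to 1838 FPKM with SAR.

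The claudin CLDN3, which seals tight junctions, rose from 6.17 ± 0.463 to 21.8 ± 3.87 FPKM (SD, n = 3), or by 1.79 in log2 units (limma adjusted p = 0.000514). TJP3, a scaffold under tight junctions, rose by 1.23, from 3.53 to 8.39 FPKM (limma adjusted p = 0.000238). OCLN, the tight junction protein occludin, rose by 1.06, from 2.62 to 5.57 FPKM. SPINT1, an inhibitor of epithelial serine proteases, rose by 0.47, from 32.5 to 45.3 FPKM. CLDN4 and MUC1, named after their values were seen, were the other 2 of the 5 epithelial genes with a log2 fold change above 1. MUC1, at 0.314 FPKM in control and 0.804 FPKM with SAR, reached the minimum of 0.5 FPKM only through its SAR level. Among the most abundant epithelial genes, named after their values were seen, the keratin KRT18 rose, while its partner KRT8, at 294 ± 21.2 and 336 ± 29.1 FPKM (SD, n = 3), did not pass the test, and neither did KRT19 and CLDN6.

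Other mesenchymal genes moved both ways. Of 48 listed genes, 40 were tested, of which 11 (27.5%) fell, 6 (15.0%) rose and 23 did not pass, against 9.55% lower and 23.7% higher among all tested genes. The median log2 fold change of the list was -0.04, and -0.16 after rescaling, and its summed level was 1360 to 1384 FPKM in control and 1192 to 1244 FPKM with SAR. The count of 11 was 4 without SAR replicate 1 or control replicate 3 and 6 without SAR replicate 2. COL5A2, a fibrillar collagen chain, fell most in this list, from 82.2 ± 10.2 to 17.1 ± 0.392 FPKM (SD, n = 3). COL5A2 fell by 2.25 in log2 units (limma adjusted p = 7.96e-05). ITGAV, an integrin subunit that binds fibronectin and vitronectin, fell by 0.80, from 23.9 to 13.6 FPKM. COL6A1 fell by 0.45 and SPARC, a collagen-binding matrix protein, by 0.28 from 167 to 138 FPKM. In the other direction BGN, the matrix proteoglycan biglycan, rose by 2.14, from 1.40 ± 0.297 to 6.48 ± 0.974 FPKM (limma adjusted p = 0.000522). S100A4, a calcium-binding protein used as a fibroblast marker, rose by 0.69, TIMP1, an inhibitor of matrix metalloproteases, by 0.56, and DAB2, an endocytic adaptor, by 0.86.

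**Figure D4:**
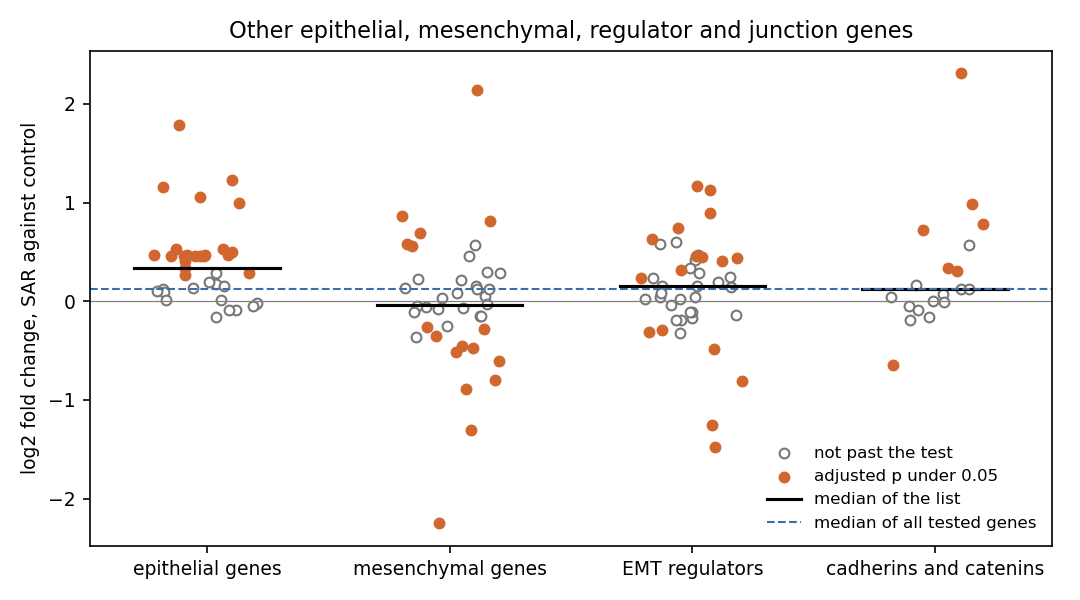
Log2 fold change with SAR against control of the tested genes in 4 lists, with 1 point per gene, orange where the adjusted p was under 0.05 and open where it was not. Black bars are list medians and the dashed line is the median of all tested genes at 0.12. The epithelial list has 21 orange points, all above 0, while the mesenchymal list has 11 below and 6 above 0.

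Of 51 regulators and partners of EMT factors, 42 were tested, of which 11 rose and 6 fell, against 23.7% and 9.55% of all tested genes, and the median was 0.15. After median-ratio rescaling 9 were higher and 10 lower. Without control replicate 3 the counts were 7 and 3, and without control replicate 2, 3 were lower. ID3, an inhibitor of basic helix-loop-helix factors, rose by 1.13, from 22.2, 21.1 and 22.8 FPKM in control to 51.7, 47.9 and 45.8 FPKM with SAR (limma adjusted p = 0.000178). OVOL2, a repressor of ZEB1 that maintains epithelia, rose by 0.89 from 1.83 to 3.47 FPKM. SOX9 rose by 1.17 from 1.71 to 3.95 FPKM, and CTBP1, a corepressor that ZEB factors recruit, by 0.41. GSC, a homeobox factor of the organizer and anterior endoderm that is also in the DE list, fell by 1.48 from 70.5 ± 1.55 to 25.4 ± 3.79 FPKM (limma adjusted p = 0.000382). KLF8, a repressor of CDH1, fell by 0.81 from 14.4 to 8.13 FPKM, and HMGA2, a chromatin protein that activates SNAI1, by 0.48. MSX2 fell by 1.26, from 0.788 to 0.269 FPKM, on 32 to 44 reads in control and 10 or 11 with SAR. MSX2 reached the minimum of 0.5 FPKM only through its control level and lay under it when any control library was left out, and its difference was -0.49 with an added 1 in place of 0.1.

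Of 37 other cadherins, catenins, nectins and junction genes such as VCL, 19 were tested. Of these, 6 (31.6%) rose and 1 (5.26%), VCL, fell, against 23.7% and 9.55% of all tested genes. Their median was 0.12, equal to that of all tested genes. After rescaling 5 were higher and 4 lower. The beta- and alpha-catenins CTNNB1 and CTNNA1, which link cadherins to actin and are named after their values were seen, were at 41.6 and 39.1 FPKM and at 60.9 and 58.9 FPKM in control and with SAR, and did not pass the test (95% intervals of the log2 fold change -0.30 to 0.13 and -0.16 to 0.07). VCL, which encodes vinculin, an actin linker at junctions and focal adhesions, fell by 0.65 from 74.8 ± 10.9 to 47.6 ± 6.37 FPKM (SD, n = 3, limma adjusted p = 0.0135). VCL was no longer past the test without control replicate 3, so that 0 genes of the list then fell (limma adjusted p = 0.0517). CDH10, a type II cadherin, rose by 2.31 from 0.373 to 2.28 FPKM, on 24 to 35 reads in control and 109 to 187 with SAR. It reached the minimum of 0.5 FPKM only through its SAR level, and its difference was 1.25 with an added 1 in place of 0.1. The nectins NECTIN1 and NECTIN2, immunoglobulin-like adhesion molecules of adherens junctions, rose by 0.72 and 0.31, and ARVCF, a catenin of the p120 group, by 0.34. Without control replicate 3 ARVCF stood at 0.32 and was no longer past the test (limma adjusted p = 0.0508).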

How the data were processed

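The members, gene lists and tests were chosen with earlier results of these data known. Per the labels and the paper's methods, mRNA was selected with oligo(dT) beads and sequenced as paired-end reads, and the submitters' processing notes name HISAT2, featureCounts, Subread, DESeq2 and GRCh38.p13 without versions. The authors deposited FPKM for 40396 Ensembl genes, 1 column per library, each matched to its sample by name. FPKM are scaled by each library's total only and depend on the gene length used. The strand setting and annotation release are not given in the sources used here.

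Because FPKM are not counts, limma 3.58.1 in R 4.3.3 (lmFit, eBayes with an intensity trend) was run on log2(FPKM + 0.1) for 16371 genes whose mean reached 0.5 FPKM, with two-sided p-values, Benjamini-Hochberg adjustment over all of them and no replicate block. All fold changes are therefore on this scale, on which changes of low genes come out too small. The study's thresholds (log2 fold change above 1) were an alternative.

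Read counts were recovered as the whole numbers that give each gene's FPKM steps in all 6 libraries, within 0.005 reads, for 40394 genes. A count by itself shows counting error only, while voom on these counts also takes in the spread between libraries. Libraries of the same group differed by more than counting error (chi-square of 4.0 to 13.3 for each degree of freedom), so no library was a second copy of another. Symbols were looked up by gene ID, which gave 30235 of the 40396 IDs a symbol, and 2 older symbols were matched by synonym (PALS1 and INAVA). Positions came from GENCODE 29. The genes named from each list were up to 4 higher and 4 lower ones with the smallest adjusted p. The fit was tried on simulated counts with a fixed spread and with changes placed only in genes with many reads. Its recovery of changes in low genes, such as SNAI2 and the ZEB genes, was not tested there. Python 3.11.15, pandas 2.3.3, scipy 1.17.1 and matplotlib 3.10.9 were used for summaries. A gene of the mesenchymal list is included in the counts of that list and is otherwise not reported here.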

Additional observations from a re-analysis of the deposited data

How the results depend on the processing

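Of the 10 EMT genes, CDH1, EPCAM and VIM kept direction and call under all 15 alternatives, with log2 fold changes of 0.45 to 0.64, 0.52 to 0.68 and -0.83 to -0.68, and CDH2 kept its direction, at -0.45 to -0.25. With each library left out in turn, 2 of the 8 tested members were higher and 1 or 2 lower. With no filter on low values, all 10 were tested and 1 was lower, CDH2 having lost its call. In that setting 3 were higher, with ZEB2 as the third, at 1.30 (limma adjusted p = 0.0422). ZEB1 and ZEB2 were tested only with no filter. With a log2 fold change over 1 required, 0 of the 8 members tested in the main fit were higher and 0 lower by limma. This was so also at an unadjusted p under 0.05 and with voom on the recovered reads, an alternative added after the data were seen. Under that rule 559 of all genes were higher and 259 lower, with 5 higher epithelial genes, 1 higher and 2 lower mesenchymal genes, 2 and 2 EMT regulators, and 1 and 0 cadherins and catenins. After median-ratio rescaling 2259 of all genes were higher and 2538 lower, with 1 lower epithelial gene, 10 lower EMT regulators and 4 lower cadherins and catenins. After quantile normalization 2429 of all genes were higher, with 1 lower epithelial gene and 2 lower cadherins and catenins. The mesenchymal genes that were lower numbered 5 with no filter and 6 without an intensity trend, and 10 mesenchymal genes were higher with voom. The cause of these shifts was not tested.

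With each library left out in turn, 2129 to 3751 of all genes were higher and 833 to 1824 lower. The epithelial genes were 17 to 21 higher and 0 to 1 lower, the mesenchymal genes 6 to 8 higher and 4 to 9 lower, the EMT regulators 7 to 14 higher and 3 to 8 lower, and the cadherins and catenins 4 to 6 higher and 0 to 1 lower. The difference in log2 ratio lay between -1.01 and -0.75 for CDH2 to CDH1 and between -1.39 and -1.32 for VIM to EPCAM. Control and SAR samples of the same number are not said to be paired. Their deviations from the group means correlated at 0.073, 0.003 and 0.025, and not every sample correlated best with its own number. With 3 samples per group, such values cannot settle whether samples of the same number were made together. With the replicate block, 3400 of all genes were higher and 1448 lower, as were 2 and 2 of the 8 tested EMT genes. Over the 33 tested genes named by rule, 483 of 490 values under alternatives stayed on their side of the test, 6 lost the call (4 for CDH2 and 1 each for ARVCF and VCL), 1 gained it (SNAI1) and 0 reversed. SNAI2, TWIST1, ZEB1 and ZEB2 rest on 4 to 144 reads per library, which limits what could be detected for them.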

Other observations

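The RNA-binding proteins that set epithelial or mesenchymal splicing were among the EMT regulators and were chosen for mention after their values were seen. ESRP1, the epithelial splicing regulator, was at 32.8, 36.3 and 34.2 FPKM in control and at 36.7, 33.5 and 35.8 FPKM with SAR, so that the groups overlapped. Its log2 fold change was 0.04 with a 95% interval from -0.11 to 0.18 (limma). RBFOX2, which favours mesenchymal splicing, was at 21.0, 26.5 and 24.9 FPKM in control and at 16.3, 19.0 and 23.1 FPKM with SAR, also with overlap (-0.32, 95% interval -0.65 to 0.02). ESRP2, the relative of ESRP1, was at 5.36, 5.35 and 5.39 FPKM in control and lower in each SAR library, at 5.09, 5.22 and 4.59 FPKM. Its log2 fold change was -0.11 (limma adjusted p = 0.25), and -0.23 after median-ratio rescaling, where it passed the test (limma adjusted p = 0.0495). QKI, which also favours mesenchymal splicing, was at 8.81, 8.85 and 8.82 FPKM in control and at 8.23, 8.86 and 9.89 FPKM with SAR. Gene-level FPKM do not show which isoforms were made.

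Among 4261 genes whose mean reached 10 FPKM, the 3 whose log2 level over the 6 libraries was most like that of CDH1 were SLC7A8, INTS11 and GLDC, with Pearson's r of 0.9985, 0.9931 and 0.9923. Those most like CDH2 were CELF2, CNTROB and ERBB4, at 0.9965, 0.9949 and 0.9917. These values describe 6 points that share their libraries and the difference between the groups, and many genes were compared.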
